A study of Mus musculus with 15 samples.

Results

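Organoids grown from primary colon tumours of transplant round 3 (Primary3) were compared with organoids grown from primary tumours of round 2 (Primary2), gene by gene. The groups were taken from the sample titles and hold 3 libraries each, 6 of the 15 RNA-seq libraries of the series. The other 9 libraries come from liver metastases of rounds 1, 2 and 3 (Met1, Met2 and Met3), and they enter the shared estimate of the spread between replicates. All 15 are organoids of mouse colon cancer with the genotype AKP, and the recipient mice are labelled C57Bl6. In the study's design the tumour-derived organoids were put back into the colon of immunocompetent mice in each round, and the primary-derived lines served as controls for the metastasis-derived ones. Whether the 3 replicates of a group came from different mice, from different lines or from repeat cultures of 1 line is not in the labels. The library names carry a different number for each, whose meaning is not given. The p-values therefore cover the spread among the libraries at hand, which need not be the spread between mice or between lines.

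Organoids are small cultures of epithelial cells in a gel, free of most of the stroma, vessels and immune cells of the tumour they came from. Loss of Apc leaves the Wnt pathway switched on, so that genes of the intestinal stem cell can be transcribed without a Wnt ligand. The MAPK cascade carries growth signals from the cell surface to the nucleus, and Trp53 is the gene of the p53 tumour suppressor.

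Of 54418 genes in the deposited table of counts, 14925 had enough counts to be tested. Levels are given as CPM, a count scaled by its library's total and by a TMM factor for differences in library composition. Total counts were 14122203, 16124413 and 17502844 in the Primary3 libraries (replicates 1, 2 and 3), against 17996537, 21306543 and 19628192 in the Primary2 libraries. The ribosomal RNA gene CT010467.1 took 3.53%, 6.59% and 7.03% of the counts in Primary3, against 3.82%, 3.83% and 3.74% in Primary2. Replicates 2 and 3 of Primary3, which hold the high ribosomal RNA shares, were also the most alike of all 15 pairs among the 6 libraries. Their median absolute log2 difference per gene was 0.13, against 0.20 to 0.33 for the other pairs. Replicate 1 of Primary3 was closer to each Primary2 library than to either library of its own group. The values were 0.196, 0.232 and 0.234 to replicates 1, 2 and 3 of Primary2, against 0.235 and 0.244 to its own group. By Pearson's r of log2 CPM across genes the order was another. It was 0.963, 0.955 and 0.972 to replicates 1, 2 and 3 of Primary2, and 0.967 and 0.970 to its own group.

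Both groups carried the markers of gut epithelium. Epcam, an adhesion molecule of epithelial cells, stood at 851, 1053 and 1058 CPM in Primary3, against 853, 1026.6 and 934 CPM in Primary2. Cdx2, a transcription factor of the intestine, stood at 30.0, 18.5 and 21.8 CPM in Primary3, against 21.2, 13.01 and 22.4 CPM in Primary2, while Cdx1 was at or near 0 in all 6 libraries. Summed over 14 epithelial markers, the level was 7753 to 8971 CPM in Primary3 and 6581 to 9195 CPM in Primary2. The 10 endothelial markers summed to at most 1.29 CPM in Primary3 and 1.18 CPM in Primary2, with Cdh5 and Kdr at 0 in every library. The 13 immune markers summed to 9.36 to 20.9 CPM in Primary3 and 7.25 to 12.5 CPM in Primary2, most of it from Csf1r and Cd68, with Cd3e and Tyrobp at 0. In bulk RNA, fewer cells of a type and less RNA per cell cannot be told apart.

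Gata6, Apc and Trp53 did not pass the test. Gata6, a GATA-family transcription factor of endoderm and gut (GRCm38 chromosome 18, 11052064 to 11085635), stood at 7.68, 4.62 and 9.71 CPM in Primary3, against 3.11, 8.89 and 3.41 CPM in Primary2. The 2 sets of libraries overlapped, and the log2 change had a 95% interval of -1.31 to 2.33 (edgeR adjusted p = 0.935). Apc, the brake on Wnt signalling (chromosome 18, 34220924 to 34322552), averaged 68.7 ± 7.14 CPM in Primary3 and 84.9 ± 6.65 CPM in Primary2 (SD, n = 3 each). Its log2 change was -0.30 (SE 0.13, edgeR adjusted p = 0.699), and all 3 Primary3 libraries lay below all 3 Primary2 libraries. Trp53 averaged 8.49 ± 1.59 CPM in Primary3 and 7.87 ± 0.90 CPM in Primary2. Its edgeR adjusted p was 0.947. RNA levels do not show which alleles are present.

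No gene passed the test between Primary3 and Primary2. edgeR's quasi-likelihood test, with Benjamini-Hochberg adjustment over 14925 genes and a threshold of 0.05, called 0 genes (0%). The unadjusted p was under 0.05 for 1063 genes (7.12%), of which 603 were higher and 460 lower in Primary3, and the smallest adjusted p was 0.0807. DESeq2's Wald test called 43 genes, 36 higher and 7 lower, and limma-voom called 1. Leaving out replicate 3 of Primary2 gave 2 edgeR calls, Aqp1 and Vwa8. The 3 libraries of one group lay wholly above or below those of the other for 2497 genes (16.7%), 1265 higher in Primary3 (8.48%) and 1232 lower (8.25%).

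The split between higher and lower genes varied with gene length. Genes averaging a log2 CPM of 1 or more were cut into 4 classes by merged exon length. Among the 2970 genes of the shortest class 205 were higher and 53 lower in Primary3 at an unadjusted p under 0.05, and among the 2966 of the longest class 86 were higher and 151 lower. The median log2 difference of the shortest class from the mean of the 6 libraries was 0.0032, 0.06 and 0.04 in Primary3, against 0.02, 0.0082 and -0.12 in Primary2, and that of the longest was -0.03, -0.03 and -0.01 in Primary3, against -0.03, 0.0059 and 0.0997 in Primary2. Replicate 3 of Primary2 was the lowest library for short genes and the highest for long ones. Without it the numbers were 143 higher and 80 lower in the shortest class, and 121 higher and 101 lower in the longest. The part of gene length in the results of single genes and lists was not tested.

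**Figure D1:**
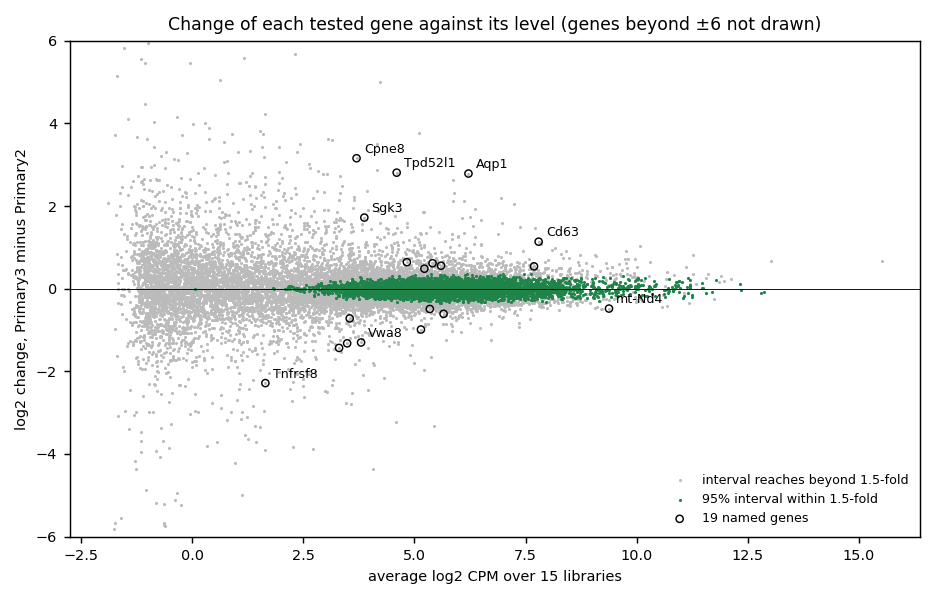
Log2 change, Primary3 minus Primary2, of each tested gene (1 point a gene) against its average log2 CPM over the 15 libraries, with 31 genes beyond 6 on the log2 scale not drawn. Green points are the 4857 genes whose 95% interval lies within 1.5-fold, and open circles are 19 named genes, of which Vwa8 has the smallest adjusted p, 0.0807.

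The genes nearest to the threshold are named next, none of which passed edgeR's test. Vwa8, a mitochondrial ATPase with a von Willebrand factor A domain (chromosome 14, 78849052 to 79202310), had 7.68, 6.29 and 7.18 CPM in Primary3, against 18.3, 20.3 and 13.6 CPM in Primary2. The 3 Primary3 libraries were close together and far below the lowest Primary2 library. Its log2 change was -1.30 (SE 0.18, edgeR adjusted p = 0.0807). DESeq2 called it with an adjusted p of 6.29e-08, and so did edgeR without replicate 3 of Primary2 (0.0132), while over all alternatives the adjusted p ran up to 1.

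Of the 10 named genes higher in Primary3, Aqp1 reached the highest mean level. Aqp1, the water channel aquaporin 1 (chromosome 6, 55336432 to 55348555), had 410, 223 and 336 CPM in Primary3, against 19.9, 14.9 and 106 CPM in Primary2. Replicate 3 of Primary2 stood apart from its own group. Without it the log2 change was 4.21 in place of 2.79 (SE 0.64), with an edgeR adjusted p of 0.0132 in place of 0.577. Of 16 settings, the main fit included, this was the only 1 that called Aqp1, and DESeq2's Wald test did not call it. Cd63, a tetraspanin of late endosomes and secreted vesicles, had 221, 319 and 326 CPM in Primary3, against 132, 146 and 115 CPM in Primary2, a log2 change of 1.14 (SE 0.26, edgeR adjusted p = 0.577). Chmp2a, a subunit of the ESCRT-III complex that cuts membrane necks, had 185, 238 and 251 CPM in Primary3, against 167, 153 and 144 CPM in Primary2. Cpne8, a copine that binds phospholipid in the presence of calcium, had 11.9, 22.1 and 20.1 CPM in Primary3, against 0.859, 1.48 and 3.69 CPM in Primary2. Tpd52l1, of the tumour protein D52 family, had 15.9, 19.97 and 26.6 CPM in Primary3, against 1.34, 1.85 and 5.68 CPM in Primary2. The log2 changes were 3.16 (SE 0.67) for Cpne8 and 2.81 (SE 0.56) for Tpd52l1, both with an edgeR adjusted p of 0.577.

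Of the other 5 named higher genes, Dcaf15 had the closest Primary3 replicates. Dcaf15, a substrate receptor of a cullin-RING ubiquitin ligase (chromosome 8, 84097072 to 84104768), had 49.3, 48.3 and 50.3 CPM in Primary3, against 33.7, 34.9 and 37.2 CPM in Primary2. This gene had the smallest p of the higher genes, with a log2 change of 0.48 (SE 0.09, edgeR adjusted p = 0.577). Sgk3, a kinase of the serum and glucocorticoid-regulated family, averaged 7.63 ± 1.93 CPM in Primary3 and 2.31 ± 1.05 CPM in Primary2. Oard1, which removes ADP-ribose from proteins, averaged 62.4 ± 7.96 CPM in Primary3 and 42.5 ± 1.05 CPM in Primary2. Swap70, an actin-binding signalling protein, averaged 44.2 ± 4.32 CPM in Primary3 and 28.9 ± 2.12 CPM in Primary2. Fam98c averaged 28.4 ± 5.72 CPM in Primary3 and 18.2 ± 0.525 CPM in Primary2 (SD, n = 3 each throughout). The 10 named higher genes share 1 edgeR adjusted p of 0.577. DESeq2's Wald test called each of them except Aqp1.

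Of the 10 genes lower in Primary3, Tnfrsf8 had the lowest levels. Tnfrsf8, the receptor CD30 of the tumour necrosis factor family, had 0.269, 0.449 and 0.235 CPM in Primary3, against 1.45, 1.67 and 1.61 CPM in Primary2. Its log2 change was -2.29 (SE 0.58, edgeR adjusted p = 0.620). Reep6, a protein of the endoplasmic reticulum, averaged 4.83 ± 0.323 CPM in Primary3 and 12.1 ± 1.23 CPM in Primary2. Mid2, a microtubule-associated ubiquitin ligase, averaged 2.49 ± 1.01 CPM in Primary3 and 6.75 ± 0.838 CPM in Primary2. Tst, the mitochondrial sulphur transferase rhodanese, averaged 13.2 ± 2.69 CPM in Primary3 and 26.2 ± 5.79 CPM in Primary2. The lipid kinase Pik3c2b averaged 4.27 ± 0.228 CPM in Primary3 and 7.04 ± 1.02 CPM in Primary2. Zc3h13, a part of the complex that writes N6-methyladenosine on RNA, averaged 35.5 ± 3.32 CPM in Primary3 and 49.97 ± 8.48 CPM in Primary2. Nipal2 and mt-Nd4 were also among the lower genes, and the edgeR adjusted p of the lower genes other than Vwa8 was 0.577 or 0.620.

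**Figure D2:**
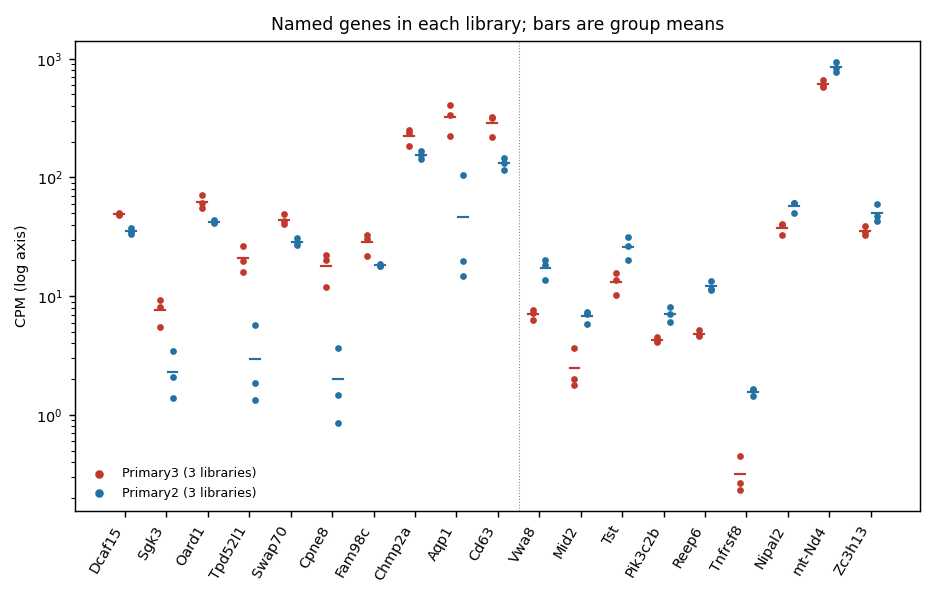
CPM on a log axis of 19 named genes in each of the 3 Primary3 libraries (red, left of each pair) and the 3 Primary2 libraries (blue), with bars at the group means. The 10 genes left of the dotted line were higher and the 9 right of it lower in Primary3, and replicate 3 of Primary2 is the blue point at 106 CPM for Aqp1.

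Among gene groups, the immediate early factors leaned to higher values in Primary3. These are transcription factors and regulators that cells switch on within minutes of a growth or stress signal. All 16 tested members had positive log2 changes, with a median of 0.54 beside -0.01 over all genes, yet 0 passed edgeR's test and 3 had an unadjusted p under 0.05. Zfp36, which speeds the decay of mRNAs, had 18.4, 31.6 and 32.5 CPM in Primary3, against 14.5, 16.2 and 17.4 CPM in Primary2. Atf3, a stress-induced factor, had 16.5, 55.1 and 55.0 CPM in Primary3, against 9.55, 26.01 and 15.1 CPM in Primary2. Klf2 had 3.77, 11.1 and 20.1 CPM in Primary3, against 2.09, 5.79 and 5.82 CPM in Primary2. In each of these genes replicate 1 was the lowest library of each group. The ribosomal RNA share was also lowest in replicate 1 of Primary3, and it was 3.82%, 3.83% and 3.74% across Primary2. Its part in the levels of these genes was not tested. With the ribosomal RNA share as a covariate the median of the list was 0.22, and 13 of 16 members were positive. Among the 6 libraries high shares were found only in Primary3, so this covariate overlaps in part with the group contrast. Here and in the lists below, a median with this covariate cannot fully tell the 2 apart.

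MAPK output genes, among them the phosphatases that feed back on the cascade, were split in sign. Of 18 tested MAPK output genes 11 were positive, the median log2 change was 0.23, and 0 passed edgeR's test. Dusp6, a phosphatase that turns off ERK, had 88.7, 94.2 and 96.0 CPM in Primary3, against 48.0, 72.2 and 68.9 CPM in Primary2. Dusp7, a related phosphatase, had 30.6, 40.8 and 41.7 CPM in Primary3, against 21.04, 27.4 and 29.2 CPM in Primary2. Both genes lay higher in all 3 Primary3 libraries, with edgeR adjusted p of 0.620 for Dusp6 and 0.671 for Dusp7. For 6 of the 18 members the groups did not overlap, in either direction, beside 16.7% of all genes tested. The median of the list was -0.02 with the ribosomal RNA share as covariate.

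Of 13 tested genes of layered, squamous epithelium 11 were positive, with a median log2 change of 0.63, and 0 passed edgeR's test. Krt15, a keratin of basal cells, had 32.7, 5.65 and 20.1 CPM in Primary3, against 1.72, 1.99 and 4.26 CPM in Primary2. Dsg3, a desmosomal cadherin, had 75.1, 79.6 and 109 CPM in Primary3, against 9.77, 14.6 and 48.6 CPM in Primary2. Krt17 had 16.2, 6.80 and 2.35 CPM in Primary3, against 0.590, 1.25 and 0.663 CPM in Primary2. The groups did not overlap for these 3 genes, and for 4 of the 13 in all, beside 16.7% of all genes tested. The log2 changes of the 3 were 2.87 (SE 0.86), 1.85 (SE 0.60) and 3.33 (SE 1.1975), with edgeR adjusted p of 0.620, 0.633 and 0.638. Sprr2a3, a precursor of the cornified envelope, overlapped between groups. With the ribosomal RNA share as covariate, the median of the list was 0.36.

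Of the 21 tested cytokines and chemokines 14 were positive, 9 did not overlap between groups, beside 16.7% of all genes tested, and 0 passed edgeR's test. Cxcl1, a chemoattractant for neutrophils, had 75.5, 82.2 and 79.4 CPM in Primary3, against 27.9, 24.7 and 42.5 CPM in Primary2. Cxcl2, a related chemokine, had 14.8, 9.501 and 12.3 CPM in Primary3, against 1.88, 3.29 and 5.78 CPM in Primary2. The groups did not overlap for either, and the log2 changes were 1.32 (SE 0.48) for Cxcl1 and 1.74 (SE 0.64) for Cxcl2, each with an edgeR adjusted p of 0.638. Ccl20 overlapped between groups, and Cx3cl1, the membrane-bound chemokine, was lower in Primary3. The median log2 change of the list, 0.40, was 0.15 without replicate 1 of Primary2, 0.77 without replicate 3 of Primary2 and 0.01 with the ribosomal RNA share as covariate.

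S100 proteins and annexins, which bind calcium, were positive in 18 of 20 tested members, with a median of 0.27 and 0 passing edgeR's test. The median was 0.16 without replicate 3 of Primary3 or replicate 1 of Primary2, and 0.11 with the ribosomal RNA share as covariate. S100a8 had 27.9, 17.1 and 23.7 CPM in Primary3, against 1.83, 1.34 and 6.82 CPM in Primary2, a log2 change of 2.78 (SE 0.88, edgeR adjusted p = 0.633). S100a4 was high in 1 library alone, with 56.2, 29.0 and 185 CPM in Primary3, against 32.0, 36.6 and 28.1 CPM in Primary2. That library, replicate 3 of Primary3, was also the one with the most Vim. Vim, the intermediate filament of mesenchymal cells, had 39.7, 7.38 and 159 CPM in Primary3, against 2.63, 1.39 and 2.46 CPM in Primary2 (log2 change 4.99, SE 1.62, edgeR adjusted p = 0.633). The other 11 of 12 fibroblast markers summed to little: Col1a1 was at most 0.118 CPM in Primary3 and 0.0463 CPM in Primary2, and Lum was at 0 in all 6. Of 7 tested genes of mesenchymal transition 5 were positive, with a median log2 change of 1.45, and 0 passed edgeR's test. For 3 of the 7 the groups did not overlap, beside 16.7% of all genes tested. The median was 0.81 without replicate 3 of Primary3 and 1.03 with the ribosomal RNA share as covariate. Twist1, a factor of this transition that went the other way, had 0.269, 0 and 8.89 CPM in Primary3, against 6.23, 18.0 and 5.26 CPM in Primary2. Its groups overlapped.

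The Wnt pathway list leaned to lower levels in Primary3. Of 18 tested feedback genes and targets 5 were positive, the median log2 change was -0.31, 7 did not overlap between groups, beside 16.7% of all genes tested, and 0 passed edgeR's test. Lgr5, the receptor that marks intestinal stem cells, had 13.5, 13.99 and 12.2 CPM in Primary3, against 19.3, 28.2 and 27.8 CPM in Primary2. Bambi, a pseudoreceptor that dampens BMP and TGF-beta signals, had 3.16, 4.30 and 4.47 CPM in Primary3, against 8.21, 10.7 and 6.01 CPM in Primary2. Znrf3, a ligase that removes Wnt receptors, had 25.99, 25.7 and 19.4 CPM in Primary3, against 27.3, 31.7 and 33.0 CPM in Primary2. Their log2 changes were -0.92 (SE 0.45), -1.06 (SE 0.33) and -0.37 (SE 0.25), with edgeR adjusted p of 0.716, 0.620 and 0.795. Prox1 was near 0 in Primary3 (0.135, 0 and 0 CPM), against 2.90, 1.43 and 0.426 CPM in Primary2. The median of the list was -0.30 with the ribosomal RNA share as covariate, and -0.14 over the 15 members tested in a fit to the 6 primary libraries alone.

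Of 26 tested cell cycle genes 25 had negative log2 changes, with a median of -0.26, 9 lay within 1.5-fold and 0 passed edgeR's test. Top2a, the topoisomerase of dividing cells, had 509, 328 and 327 CPM in Primary3, against 580, 479 and 467 CPM in Primary2. Bub1, a kinase of the spindle checkpoint, had 77.6, 61.3 and 56.3 CPM in Primary3, against 97.4, 81.6 and 79.6 CPM in Primary2. Replicate 1 was the highest library of its group for both genes. The median was -0.12 without replicate 3 of Primary3, -0.50 without replicate 1 of Primary3, -0.17 without replicate 1 of Primary2, and -0.06 with the ribosomal RNA share as covariate, where 9 of 26 were positive.

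Transcripts of the mitochondrial genome had negative log2 changes in 12 of 13 genes, with a median log2 change of -0.40. For 7 of the 13 the groups did not overlap, beside 16.7% of all genes tested, and 0 passed edgeR's test. mt-Nd4, a subunit of respiratory complex I, had 664, 578 and 586 CPM in Primary3, against 843, 775 and 937 CPM in Primary2 (log2 change -0.48, SE 0.13, edgeR adjusted p = 0.620). mt-Nd2 had 635, 505 and 599 CPM in Primary3, against 865, 720 and 870 CPM in Primary2. For the nuclear genes of oxidative phosphorylation the median was 0.04, with a range of -0.02 to 0.10 when single Primary2 libraries were left out, and 18 of 23 lay within 1.5-fold. With the ribosomal RNA share as covariate the median of the mitochondrial genes was -0.20.

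Of 19 tested genes of DNA methylation and repressive chromatin 5 were positive, the median was -0.15, 5 did not overlap between groups, beside 16.7% of all genes tested, and 0 passed edgeR's test. Setdb1, which methylates histone H3 at lysine 9, had 44.2, 36.8 and 40.01 CPM in Primary3, against 47.7, 49.7 and 51.2 CPM in Primary2. Ehmt2, another such enzyme, had 94.5, 101 and 106 CPM in Primary3, against 114, 135 and 130 CPM in Primary2. Dnmt3b, a DNA methyltransferase, had 1.55, 1.35 and 1.24 CPM in Primary3, against 3.49, 4.30 and 2.18 CPM in Primary2. Their edgeR adjusted p were 0.638, 0.638 and 0.646. The median of the list was -0.07 without replicate 3 of Primary3 and -0.24 without replicate 1 of Primary3.

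Mucins and markers of the stomach went both ways. Of 10 tested gastric and foregut genes 4 were positive, with a median log2 change of -0.35, and 0 passed edgeR's test. That median was -0.07 without replicate 3 of Primary3, and 0.05 over the 8 members tested in a fit to the 6 primary libraries alone. Of 7 tested mucins and trefoil factors 3 were positive (median -0.06, 0 passing). Muc20, a membrane mucin, had 2.09, 0.963 and 0.706 CPM in Primary3, against 10.3, 30.5 and 12.6 CPM in Primary2 (log2 change -3.83, SE 1.06, edgeR adjusted p = 0.620), and DESeq2 called it with an adjusted p of 0.0340. Gkn1, a gastrokine of the stomach lining, had 34.3, 2.25 and 17.2 CPM in Primary3, against 3.17, 2.18 and 2.75 CPM in Primary2. Muc5ac, the main mucin of the stomach surface, had 22.4, 4.81 and 16.6 CPM in Primary3, against 0.751, 0.185 and 11.8 CPM in Primary2. Interferon-stimulated genes were positive in 20 of 29 (median 0.35, 0 passing), and the median was 0.21 without replicate 2 of Primary3, 0.12 without replicate 1 of Primary2, 0.69 without replicate 3 of Primary2 and 0.12 with the ribosomal RNA share as covariate. Fetal and regenerative markers were positive in 15 of 18 (median 0.21, 0 passing). The member with the smallest p was the cytokine receptor Tnfrsf12a, with 501, 691 and 731 CPM in Primary3, against 423, 463 and 415 CPM in Primary2. The median of the fetal list was 0.38 without replicate 1 of Primary3, 0.35 without replicate 2 of Primary2 and 0.11 with the ribosomal RNA share as covariate.

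**Figure D3:**
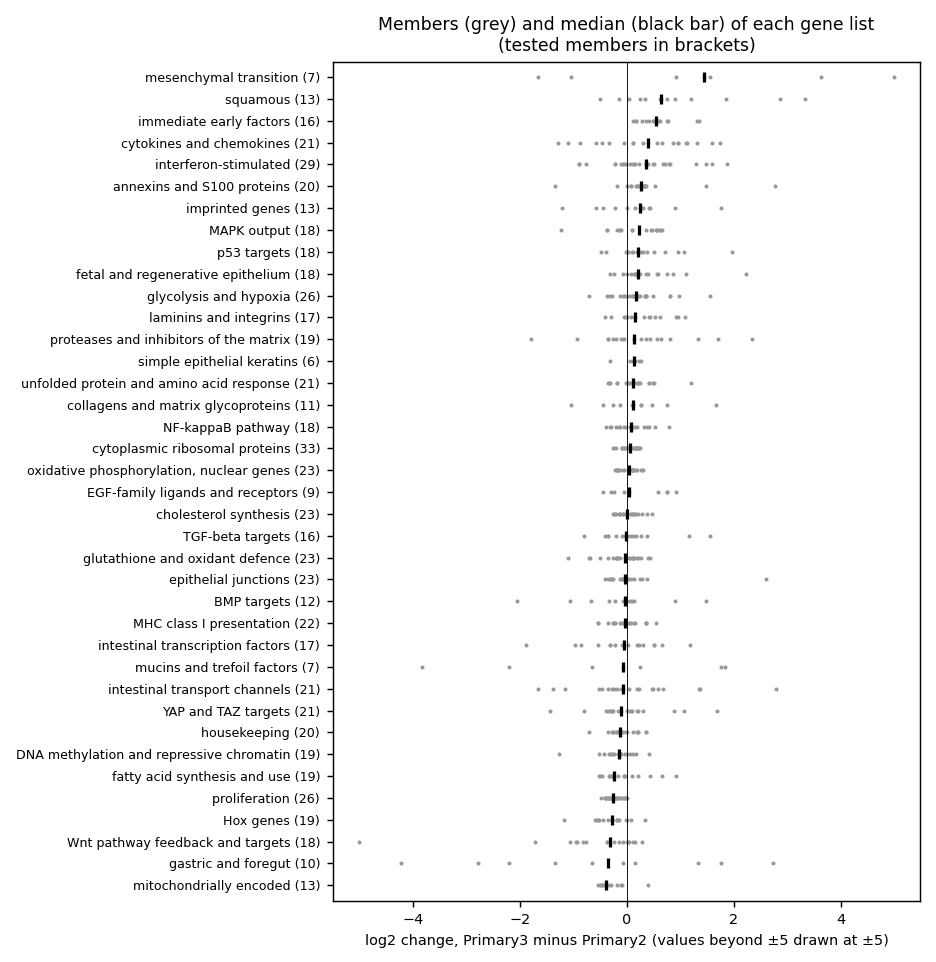
Log2 change, Primary3 minus Primary2, of each tested member (grey points) and the median (black bar) of the 38 pathway and family lists with at least 6 tested members (cell type lists not drawn), ordered by median. The immediate early list has all 16 members right of 0, the ribosomal protein list is narrow with a median of 0.05, and no member of any list passed edgeR's test.

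The median difference varied by chromosome. For each chromosome the median over its genes (average log2 CPM of at least 1) was taken of the log2 CPM, with a pseudocount of 0.5, minus the mean of the 6 libraries. Chromosome 8 gave 0.07, 0.07 and 0.13 in Primary3, against -0.18, -0.09 and 0.04 in Primary2, and chromosome 7 gave 0.07, 0.07 and 0.06 in Primary3, against 0.04, -0.14 and -0.08 in Primary2. The groups did not overlap on either as a whole. Cut into 4 stretches with equal numbers of genes, they overlapped in the last 2 stretches of chromosome 8, with the final one at 0.05, -0.0026 and 0.07 in Primary3, against -0.17, -0.10 and 0.17 in Primary2, and in the first stretch of chromosome 7. Of 645 genes on chromosome 8, 88 had an unadjusted p under 0.05 and a higher level in Primary3, and 5 a lower one, and of 907 genes on chromosome 7 the numbers were 99 and 10. Over the 11880 genes at this level 502 were higher (4.23%) and 401 lower (3.38%) at that p. Of the 43 genes that DESeq2 called, 9 lie on chromosome 8 and 9 on chromosome 7, which hold 5.29% (chromosome 8) and 7.75% (chromosome 7) of the genes tested. They include, with Vdac3, Timm44 and Rras2 picked after their values were seen, Dcaf15, Vdac3, a pore of the outer mitochondrial membrane, and Timm44, of the mitochondrial import motor, on chromosome 8, and Swap70, Chmp2a, Fam98c and Rras2, a small GTPase, on chromosome 7. The 9 on chromosome 7 also hold the predicted gene Gm15501, lower in Primary3 (mean 0 CPM, against 16.4 CPM in Primary2). Another of them, Gm45837, overlapped between groups.

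Chromosomes 14 and 19 and the mitochondrial genome were lower in all 3 Primary3 libraries. Chromosome 14 gave -0.03, -0.12 and -0.04 in Primary3, against 0.05, 0.12 and 0.02 in Primary2. Of its 409 genes 6 were higher and 42 lower at an unadjusted p under 0.05, and its median log2 change was -0.14. Chromosome 19 gave -0.0049, -0.03 and -0.05 in Primary3, against 0.0059, 0.04 and 0.03 in Primary2, so its groups were only just apart. An exact permutation test of 3 against 3 libraries cannot give a two-sided p under 0.1, and each of the 5 gave that p (adjusted p = 0.42 over 21 chromosomes). Groups that do not overlap always give that p, so the test adds nothing to the lack of overlap. The size of the chromosome 8 difference depended on single libraries: the median log2 change per gene was 0.16, but 0.11 without replicate 1 of Primary2 and 0.23 without replicate 3 of Primary2. For chromosome 7 it was 0.13, but 0.08 without replicate 2 of Primary2 and 0.19 without replicate 1 of Primary2. Between the metastasis groups the median of Met3 minus Met2 was 0.01 on both chromosomes.

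Primary2 libraries differed among themselves by whole chromosomes. On chromosome 5 the medians were -0.05, -0.09 and -0.02 in Primary3, against 0.33, 0.05 and -0.21 in Primary2. Cut in the same way, chromosome 5 gave 0.30 to 0.35 in every stretch of replicate 1 of Primary2 and -0.25 to -0.18 in every stretch of replicate 3. The median log2 change of that chromosome, -0.15, was 0.02 without replicate 1 of Primary2. Chromosome 15 stood at 0.27 in replicate 2 of Primary2 and chromosome 16 at -0.21 in replicate 1. The range over the 3 libraries reached 0.54 in Primary2 and 0.12 in Primary3, and was the larger in Primary2 on 13 of 20 chromosomes. DNA content was not measured in these libraries, and its part in these shifts was not tested.

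**Figure D4:**
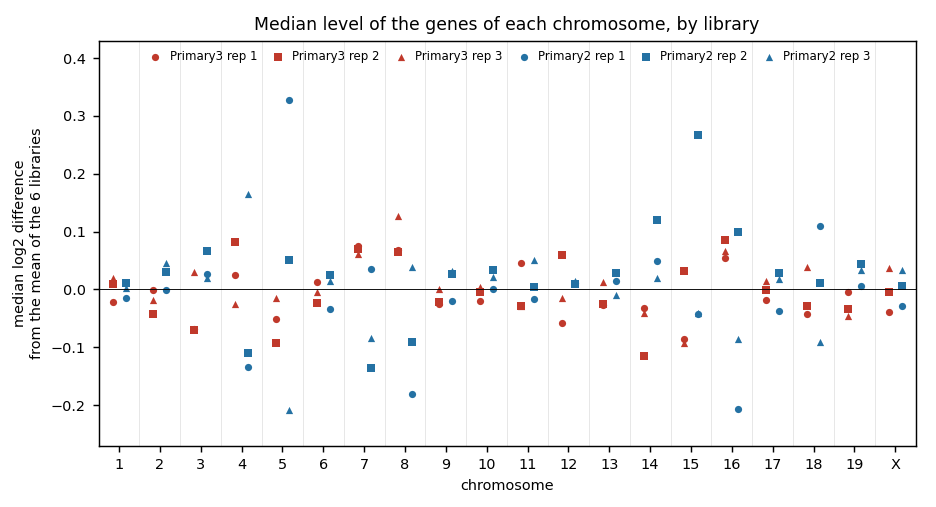
Median over the genes of each chromosome of the log2 difference from the mean of the 6 libraries, with 1 symbol per library (Primary3 red and left, Primary2 blue). On chromosomes 7 and 8 the 3 red symbols lie above the 3 blue ones, and on chromosome 5 the blue symbols spread from 0.33 to -0.21.

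Among genes with assigned names, most of the 20 highest were genes of translation and respiration, though the first was annotated as a microRNA. Levels between genes are given per kilobase of exon and scaled to the same total in each library, since longer genes give more reads. Genes annotated as ribosomal RNA and unnamed or predicted genes were passed over, 14 of them above the last of the 20 genes kept. Mir6236 ranked first of those kept, and was number 3 of all genes, with 19384 ± 6703 in Primary3 and 13066 ± 631 in Primary2 (SD, n = 3 each). Within Primary3 it was highest in the libraries with the most ribosomal RNA, and its part in that share was not tested. mt-Co1, a core subunit of cytochrome oxidase, followed with 10999 ± 683 in Primary3 and 12874 ± 1759 in Primary2, and the ribosomal stalk protein Rplp1 with 9848 ± 809 in Primary3 and 10184 ± 969 in Primary2. The elongation factor Eef1a1 reached 6027 ± 846 in Primary3 and 6873 ± 312 in Primary2. The first 20 also held S100a6, S100a11, Ly6a, a surface antigen of regenerating gut epithelium, and Krt19, a keratin of simple epithelium. Of the 20 genes with the highest level 17 were shared by the groups, and of the highest 100, 91 were, and 51 of the first 100 encode ribosomal proteins.

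Ly6a stood at 5356 ± 509 in Primary3 and 4869 ± 346 in Primary2 per kilobase, and S100a6 at 8697 ± 578 in Primary3 and 8270 ± 1186.1 in Primary2. Ribosomal proteins have many near-identical processed copies, and how the authors' counting split reads among them is not given in the sources used here, so single values such as those of Rpl10-ps3 and Rps27rt are uncertain. The 20 genes took 12.2% to 12.6% of the per-kilobase total in Primary3 and 12.4% to 12.8% in Primary2.

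**Figure D5:**
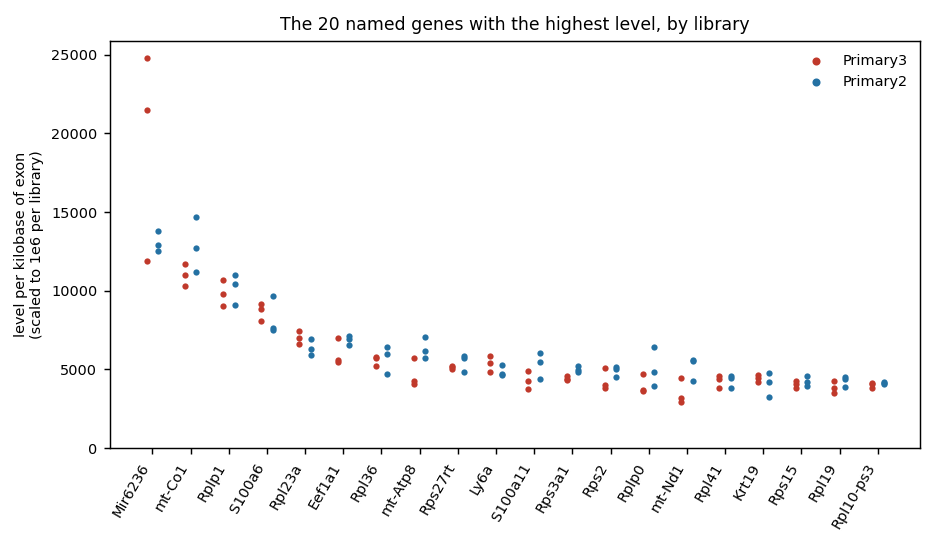
Level per kilobase of exon, scaled to the same total in each library, of the 20 named genes with the highest mean in each Primary3 library (red, left) and Primary2 library (blue). Mir6236 spreads widely in Primary3, while Rplp1 stood at 9848 ± 809 in Primary3 and 10184 ± 969 in Primary2 (SD, n = 3 each).

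A share of the transcriptome could be bounded as stable. For 4857 of 14925 genes (32.5%) the whole 95% interval of the log2 change lay within 1.5-fold either way, and for 104 the whole interval lay beyond it. Among the 1932 genes with a mean of at least 100 CPM, 1194 (61.8%) were bounded in this way, and the highest of the 6 libraries exceeded the lowest by a median ratio of 1.41. For 211 of them that ratio was under 1.2, and for 172 it was above 2. Of the gene lists, 30 of 33 ribosomal proteins, 18 of 23 nuclear genes of oxidative phosphorylation, 14 of 23 cholesterol synthesis genes and 14 of 20 housekeeping genes lay within 1.5-fold. For 7 of the 20 housekeeping genes the groups did not overlap, beside 16.7% of all genes tested, and the median of that list was -0.12. The median of the ribosomal proteins was 0.05, and between -0.06 (without replicate 3 of Primary2) and 0.12 (without replicate 1 of Primary2) with 1 library left out.

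The most even gene was Snw1, a component of the spliceosome, with 118, 118 and 115 CPM in Primary3, against 120, 115 and 114 CPM in Primary2. Ddx5, an RNA helicase, had 857, 820 and 798 CPM in Primary3, against 820, 819 and 785 CPM in Primary2. Ubb, a ubiquitin gene, had 615, 599 and 577 CPM in Primary3, against 565, 602 and 574 CPM in Primary2. Ahead of Ddx5 and Ubb, the most even genes after Snw1 were Cltb, a clathrin light chain, Yme1l1, a mitochondrial protease, Csnk2a1, the catalytic subunit of casein kinase 2, and Tmed9, a cargo receptor of the secretory pathway. The 15 most even genes had a ratio of the highest to the lowest library of 1.05 to 1.10. Reference genes in common use were not all as even. Actb had 1140, 1063 and 1032 CPM in Primary3, against 1170, 1210 and 1259 CPM in Primary2, and Polr2a had 63.8, 49.5 and 38.0 CPM in Primary3, against 78.1, 67.9 and 102 CPM in Primary2.

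Some genes varied widely over the 6 libraries, and the examples given here were picked after their values were seen. Krt84, a hair keratin, had 755, 78.9 and 388 CPM in Primary3, against 68.6, 51.3 and 146 CPM in Primary2. Rhox5, an X-linked homeobox gene of the reproductive tract, had 44.8, 40.5 and 35.8 CPM in Primary3, against 6.33, 0.926 and 12.4 CPM in Primary2. Khdc1a was high in 1 library, with 1.14, 0.642 and 1.0 CPM in Primary3, against 54.5, 3.66 and 0.189 CPM in Primary2.

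The step between rounds 2 and 3 was set beside the same step in the metastasis-derived organoids, which share no library with it. In Met3 against Met2, edgeR's test called 41 genes (0.275%), 8 higher and 33 lower. The difference between the steps, tested as an interaction, was called for 0 of 14925 genes (0%) by edgeR, with 1817 at an unadjusted p under 0.05, for 224 by DESeq2 and for 0 by limma-voom. Across 11880 genes, which are not independent replicates, 48.3% had the same sign in both steps and Pearson's r was -0.02 (Spearman's rho -0.03). Of the 20 genes chosen by smallest p, 9 had the same sign in both.

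Dcaf15 passed the test in the metastasis step, with 41.2 ± 3.22 CPM in Met3 and 28.4 ± 1.67 CPM in Met2 (SD, n = 3 each), a log2 change of 0.54 (edgeR adjusted p = 0.0404). In the primaries its log2 change was 0.48. Vwa8 stood at 14.1 ± 2.04 CPM in Met3 and 13.3 ± 1.08 CPM in Met2, close to the Primary2 level, and its interaction had an edgeR adjusted p of 0.261. Aqp1 was near 0 in both metastasis groups, with 0.250 ± 0.127 CPM in Met3 and 0.169 ± 0.237 CPM in Met2. Tpd52l1 stood at 46.2 ± 13.7 CPM in Met3 and 41.2 ± 8.29 CPM in Met2, above every primary library.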

How the data were processed

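Per the labels' protocols, RNA was extracted with a PureLink RNA Mini Kit and made into poly(A)-selected libraries with a NEBNext Ultra II Directional kit. Per the submitters' processing notes, the authors used Salmon 1.3.0 and the mm10 build. The deposited table holds estimated counts per gene, all whole numbers, for 54418 Ensembl IDs. The sources used here do not give how transcripts were summed, rounded or filtered, nor a batch or date. Symbols and positions come from GENCODE M21 (GRCm38), which matched 54166 IDs.

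Genes with low counts were removed by edgeR's filterByExpr. The 14925 kept genes were fitted over all 15 libraries with edgeR 4.0.16 (TMM, quasi-likelihood F test, R 4.3.3), and p-values were adjusted by Benjamini-Hochberg over all of them. Each SE equals the absolute log2 change over the root of its F value, and intervals are 95%. Alternatives were DESeq2 1.42.0, limma-voom (limma 3.58.1), other scaling and filters, a replicate block, the ribosomal RNA share as covariate and leaving out each of the 6 primary libraries and replicate 1 of Met2.

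Named genes are Gata6, Apc and Trp53, then, as none was called, the 10 higher and 10 lower genes with the smallest p among those with no overlap of the groups and a log2 CPM averaging 1 or more (5 predicted or unnamed genes passed over), and up to 4 genes with the smallest p from each of 40 pathway and 15 marker lists. The 20 with the highest level per kilobase and the 15 most even of those with at least 100 CPM are also named. Some genes that these rules name are not reported here. The members and lists were chosen with earlier results of these data known. Levels per kilobase use the merged exon length. A count of 0 in a library allows up to 3 counts, which is 0.171 to 0.212 CPM in Primary3 and 0.141 to 0.167 CPM in Primary2, for counting error only.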

Additional observations from a re-analysis of the deposited data

How the results depend on the processing

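The count of genes called between Primary3 and Primary2 was 0 in the edgeR fit. It was 43 with DESeq2's Wald test, 3 of them with a mean of 0 CPM in Primary2, and 1 with limma-voom (Ctla2a, adjusted p = 0.0416). Leaving out 1 of the 6 primary libraries at a time gave 0 to 2 calls, the 2 without replicate 3 of Primary2. It was 0 with DESeq2 size factors, no low-count filter, a filter of 1 CPM in 3 libraries, the 6 primary libraries alone and the ribosomal RNA covariate, where the smallest adjusted p was 1. It was also 0 without replicate 1 of Met2, an alternative added after the data were seen, as were chromosome medians over genes averaging a log2 CPM of 4 or more, and the leaving out of primary libraries by gene length. For the interaction with the metastasis step the count was 0, but 224 with DESeq2 and 1 without replicate 1 of Met2. The count within 1.5-fold was 4857, and 4951 with limma-voom, 5538 with the 6 primary libraries and 4509 with no filter. Ranking by the longest transcript kept 16 of the 20 genes with the highest level.

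With a replicate block the count of calls was 0 (smallest adjusted p 0.118), and 0 for the interaction. The labels number replicates alike in both groups, but same-numbered libraries deviated together with r of 0.35, 0.21 and 0.08, and replicate 3 of Primary3 went best with replicate 2 of Primary2 (0.32), so the numbers were not taken as pairs.

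With 3 libraries a group, intervals of genes at low counts are wide, and 17 genes have no interval. A gene that missed the threshold is not shown to be equal between groups.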
